A study of Mus musculus with 2 samples.

Results

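The proximal VH section of Igh, the immunoglobulin heavy chain locus of the mouse, is described here through the contacts among its own HindIII fragments, measured by 5C. The section is 555 kb long on chromosome 12, its probed fragments run over chr12:114747437-115262224 (mm9), and a member is a pair of 1 forward and 1 reverse fragment whose midpoints both lie in it and are 10 kb or more apart. It held 10 forward and 15 reverse fragments, which made 145 member pairs of the 10415 Igh pairs at that distance. The bounds were set to cover about the V genes nearest the D segments, of the Ighv5 and Ighv2 families, and the interval below them that follows the regulatory element IGCR1. No mm9 annotation was used here, so no fragment was placed on a gene and the label was not checked against gene positions.

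5C joins fragments that lie close together in crosslinked nuclei by ligation, and amplifies each junction with a forward primer on one fragment and a reverse primer on the other, so a pair of fragments carries 1 count. Both libraries came from splenic B cells of C57BL/6 mice, depleted of CD43-positive cells and grown for 40 hours with LPS and IL4, which activate B cells and induce class switching. They form 1 group of 2 replicates, called biological replicates in the series description, and no other condition was measured. Every error below is the SD over these 2 libraries, and no test between conditions was possible.

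A heavy chain gene is assembled in developing B cells by joining 1 V segment to a D and a J segment, which deletes the DNA between them. IGCR1 carries binding sites of the architectural protein CTCF and limits the joining of proximal V segments, and many proximal V segments have a CTCF site close by. The V segment Ighv5-2, also called VH81X, is known for frequent joining in early B cell precursors. Mature splenic B cells are a mixture of clones with different joined segments, so the proximal section is missing from alleles that joined a V segment beyond it. The number of copies of the section in these cells was not measured here. In the GRCm38.p6 gene table, used only for names and order, the V genes begin with Ighv5-1, Ighv2-1 and Ighv5-2, and 32 V genes lie between Adam6a and the first Ighv7 gene. Of these, 20 belong to Ighv5, 11 to Ighv2 and 1 to Ighv6, with 19 listed as V segments and 13 as pseudogenes.

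The 25 fragments were 1394 to 13859 bp long, with a median of 2732 bp, and covered 19.9% of the section. The longest stretch without a probed fragment was 56.5 kb. Total counts were 14503618 in replicate 1 and 17658603 in replicate 2, of which the member pairs held 46713 (0.322%) and 104133 (0.590%). The median member pair had 101 counts in replicate 1, with a 95% exact Poisson interval of 82.3 to 122.7. In replicate 2 it had 191, with 164.9 to 220.1. Such intervals cover counting error only. Counts ran from 0 to 12476 in replicate 1 and from 10 to 19802 in replicate 2. A count above 0 was found for 144 pairs in both replicates. The exception, forward 117 with reverse 249, had 0 counts in replicate 1 and 10 in replicate 2. The 95% exact Poisson interval of the count of 0 was 0 to 3.69. In replicate 1, 22 pairs had fewer than 10 counts, and in replicate 2 none of the 145 did.

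No contact inside the section was called above its distance by the test used. The expected count of a pair was read from a smooth curve of counts on distance over all Igh pairs, and the count over the expected count is called the ratio. A Weibull fit to the standardised residuals with Benjamini-Hochberg adjustment over all 10415 pairs called 0 of the 145 member pairs at q under 0.01 in both replicates, against 25 of all pairs (0.24%). Without adjustment, at p under 0.05 in each of the replicates, it also found 0 members, against 167 of all pairs (1.6%). At q under 0.01 in replicate 1 alone there were 0 members, against 0.432% of all pairs, and in replicate 2 alone 0, against 0.365%. In replicate 1 alone 1 member passed the unadjusted threshold, against 385 of all pairs (3.7%), and in replicate 2 alone 0 did, against 271 (2.6%). After correction for primer coverage 0 members were called in both replicates, against 0.317% of all pairs, and 0 passed unadjusted in both, against 1.19%. The unadjusted counts depended on the floor that keeps the curves above 0, which was chosen after the calls under 3 floors had been seen: at 0.01% of the mean, used here, 0 members passed in both replicates, but at 1% and at 5% 1 member did, forward 158 with reverse 137, against 134 and 89 of all pairs. After correction 1 member passed at 1%, forward 158 with reverse 131, and 2 at 5%, these same pairs, against 95 and 81 of all pairs. The count at q under 0.01 in both replicates was 0 under each floor. With 145 members, a share of called pairs equal to that of the whole locus would itself give few calls or none. High ratios could also stay uncalled on counts. Forward 158 with reverse 137 had ratios of 8.42 and 7.07 and was not called. Outside the section, forward 34 with reverse 181 had a ratio of 21.5 in replicate 2 and q 0.675 in this test. The absence of calls therefore does not show that the section lacks strong contacts.

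Counts of the section lay below the locus curve in both replicates. The mean ratio over the 145 pairs was 0.405 in replicate 1 and 0.407 in replicate 2, and the median ratio 0.185 and 0.218. Over all Igh pairs the median ratio was 0.357 and 0.404. Ratios above 1 in both replicates were found for 7 member pairs (4.83%), against 15.6% of all pairs, and ratios under 0.5 in both for 100 (68.97%), against 47.7%. The pair of forward 158 with reverse 137, described below, made up 14.3% and 11.99% of the summed ratios, and the mean ratio was 0.355 without it.

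Primer factors of the section were low beside those of the whole locus, and after correction for them the section lay nearer the locus mean. The primer factor of a fragment is its mean ratio over all its partners in the locus, fitted for forward and reverse primers in turn. The forward fragments of the section had a median factor of 0.556 in replicate 1 and 0.473 in replicate 2, against 0.762 and 0.692 for all forward fragments. The reverse fragments had 0.544 and 0.470, against 0.644 and 0.786. The ratio divided by these factors is called the corrected ratio. It is 1 on average over all Igh pairs, and by construction about 1 over the Igh pairs of each single fragment. Its mean over the section was 0.821 in replicate 1 and 0.983 in replicate 2, or 0.902 ± 0.115 (SD, n = 2), and its median 0.564 and 0.877. Of the 145 pairs, 23 (15.9%) had a corrected ratio above 1 in both replicates, against 20.3% of all pairs, and 3 (2.07%) were above 2 in both, against 3.32%. Another 25 (17.2%) were under 0.5 in both, against 19%. The part of primer efficiency in the low counts was not tested.

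The replicates ranked the member pairs alike, with a Spearman rho of 0.879 and a Pearson r of 0.863 for log2 counts over 145 pairs. Over all 10415 Igh pairs rho was 0.787 and r 0.812. The pairs share fragments, primers and libraries, so the values are a description. Without the distance trend rho was 0.824 for member pairs, against 0.753 for all Igh pairs. For corrected ratios it was 0.643, against 0.563. Corrected ratios were higher in replicate 2 for 107 of 145 member pairs (73.8%), against 53.3% of all Igh pairs. The median difference between replicates was 1.67-fold in corrected ratio, and for 33.3% of the pairs detected in both it was over 2-fold. Over all Igh pairs detected in both, these values were 1.54-fold and 29.3%, close to those of the section. A difference of 2-fold between single pairs is therefore within what the replicates show for the same pair.

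**Figure D1:**
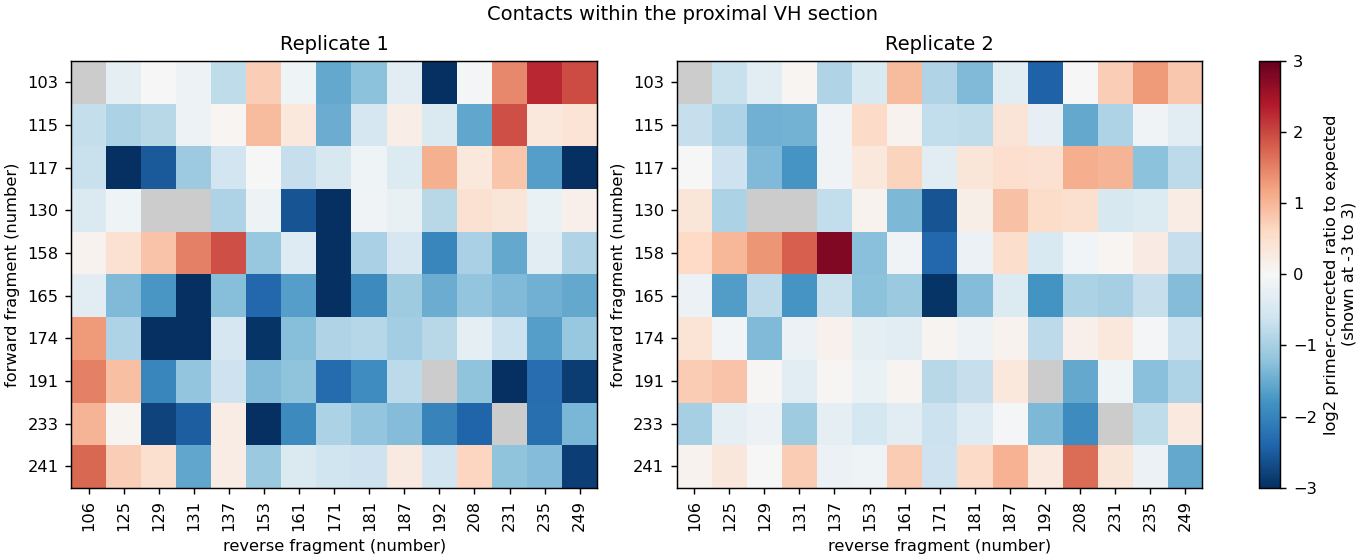
Corrected ratio (log2 colour scale, limited at both ends) of each forward fragment (rows) with each reverse fragment (columns) of the section in replicate 1 and replicate 2, in chromosomal order; grey cells are pairs under 10 kb. The row of forward 158 is high with reverse 106 to 137 in both replicates, up to 3.81 and 6.85 with reverse 137, and the row of forward 103 is high at the far end, with reverse 231, 235 and 249.

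Contacts inside the section fell with distance, with a shallower fall than the locus in replicate 1. Member pairs spanned 12.6 to 512.1 kb. Over 6 equally filled distance bins log10 of the mean count changed with log10 distance at a slope of -0.85 in replicate 1 and -1.08 in replicate 2. All 3075 Igh pairs in that range of distances gave -1.31 and -1.07, so section and locus lay apart in replicate 1 and close together in replicate 2. The nearest 25 pairs, 12.6 to 57.8 kb apart, had mean counts of 507.7 and 1775, and the farthest 24 pairs, 357.8 to 512.1 kb apart, had 66.5 and 129.5. The mean was not lower at each step: in replicate 1 it was 910.3 in the next bin, 59.0 to 117.4 kb, which holds forward 158 with reverse 137. The median count of that bin was 244, below the 408 of the nearest pairs.

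Of the 6 distance bins, the nearest had the lowest mean corrected ratio in both replicates. Pairs 12.6 to 57.8 kb apart had a mean corrected ratio of 0.432 in replicate 1 and 0.676 in replicate 2, both under the locus mean of 1, and medians of 0.456 and 0.597. By median it was the lowest bin in replicate 2 alone, since pairs 117.7 to 172.8 kb apart had 0.437 in replicate 1 and 0.818 in replicate 2. Pairs 357.8 to 512.1 kb apart had 1.54 and 1.08, with medians of 1.24 and 0.906. The mean of the farthest pairs was above 1 in both replicates and their median in replicate 1 alone. The locus mean of 1 covers Igh pairs of all distances from 10 kb, with a median distance of 983 kb. The bins were not set beside locus pairs of the same distances.

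**Figure D2:**
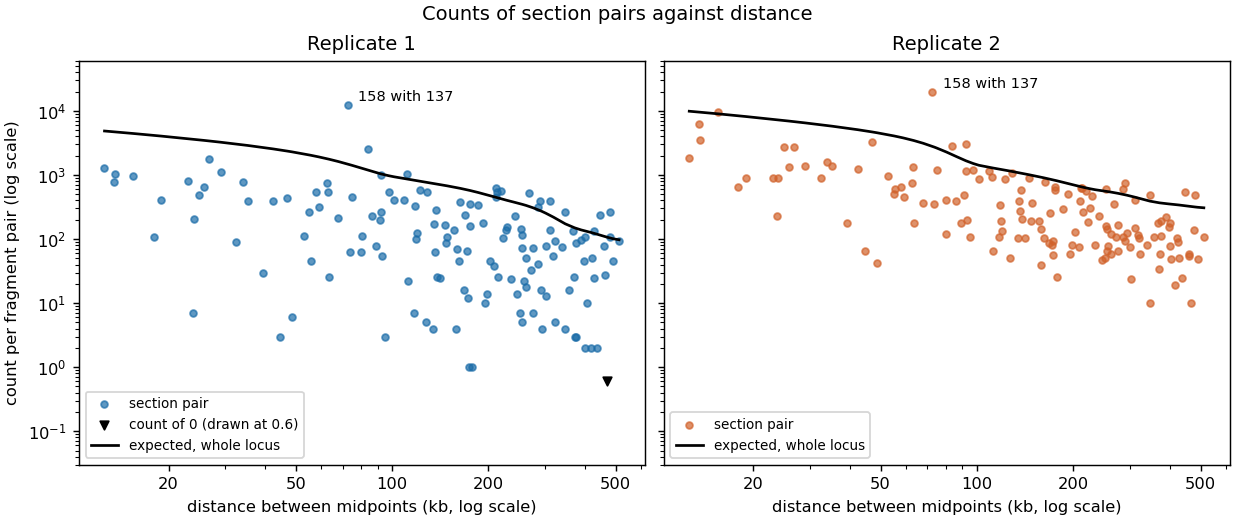
Counts of the 145 section pairs (points) against the distance between fragment midpoints, both on log scales, with the expected count of the whole locus (line), for replicate 1 and replicate 2. Most points lie under the line; forward 158 with reverse 137 is marked at 72.5 kb, with 12476 and 19802 counts.

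Forward 158 with reverse 137 had the highest ratio of the section in both replicates. Forward 158 is chr12:114938327-114939720, 1394 bp long, and reverse 137 is chr12:114864513-114868474, 3962 bp long, with midpoints 72.5 kb apart. The pair held 12476 counts in replicate 1 and 19802 in replicate 2, where 1482 and 2800 were expected. That is a ratio of 8.42 and 7.07, or 7.74 ± 0.951 (SD, n = 2). It was the only member with a ratio above 2 in both replicates, against 5.69% of all pairs. It was not called, with a p before adjustment of 0.0221 in replicate 1 and 0.130 in replicate 2 and a q of 0.806 and 0.675. With the floor of the curves at 1% p was 0.0044 and 0.0133 and q 0.391 and 0.701, and at 5% p was 0.00043 and 0.0105 and q 0.0852 and 0.678. The pair was thus short of the threshold under each floor, and its p was lower with the higher floors. After correction the ratio was 3.81 and 6.85. The primer factors were 1.49 in replicate 1 and 0.781 in replicate 2 for forward 158, and 1.48 and 1.32 for reverse 137. The pair alone made up 63.4% and 65.4% of the section counts of forward 158.

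In corrected ratio, the neighbours of this pair were far lower for reverse 137, and for forward 158 they were graded towards the D segments. Reverse 137 with the adjacent forward fragments of the section had corrected ratios of 0.523 and 0.597 (forward 130) and 0.413 and 0.630 (forward 165). Forward 165 had 0.989 and 1.25 when primer factors were taken without called pairs, as explained below. Forward 158 with the next reverse fragment towards the D segments, reverse 131 (chr12:114840678-114842494), had 533 and 1213 counts and a corrected ratio of 2.86 and 3.45. With reverse 129 (chr12:114836439-114838819) it had 403 and 859 counts, or 1.80 and 2.48. With reverse 125 (chr12:114809751-114823609) it had 588 and 870 counts, or 1.38 and 1.99, and with reverse 106 (chr12:114751970-114755042) 345 and 290 counts, or 1.08 and 1.505. From reverse 106 to reverse 137 the corrected ratio was thus higher at each step, in both replicates. Before correction, forward 158 had ratios of 0.646 and 0.376 with reverse 106 and 0.734 and 0.730 with reverse 125. With reverse 129 they were 0.430 and 0.605, and with reverse 131 0.546 and 0.804. These were all under 1 and did not rise at each step, so the run was seen only after correction. Reverse 129 and reverse 131 had low primer factors, 0.160 and 0.312, and 0.128 and 0.298.

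The run stopped short of forward 158 on that same side, and no such run was seen with the reverse fragments above forward 158. With reverse 153 (chr12:114919053-114921024), which lies between forward 158 and reverse 137, forward 158 had 408 and 889 counts at 18.99 kb. Its corrected ratio there was 0.456 and 0.418. Over the 5 reverse fragments from 106 to 137 the mean corrected ratio of forward 158 was 2.19 and 3.26, with all 5 above 1 in both replicates. Over its 10 remaining partners, reverse 153 and the reverse fragments above forward 158, it was 0.499 and 0.839, with 0 above 1 in both. The next 3 forward fragments (forward 165, 174 and 191) had a mean of 0.790 and 0.912 with the same 5 reverse fragments. With primer factors taken without called pairs these means were 2.34 and 3.10 for forward 158 and 1.08 and 1.07 for the others. These groups were formed after the values were seen and were not tested.

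**Figure D3:**
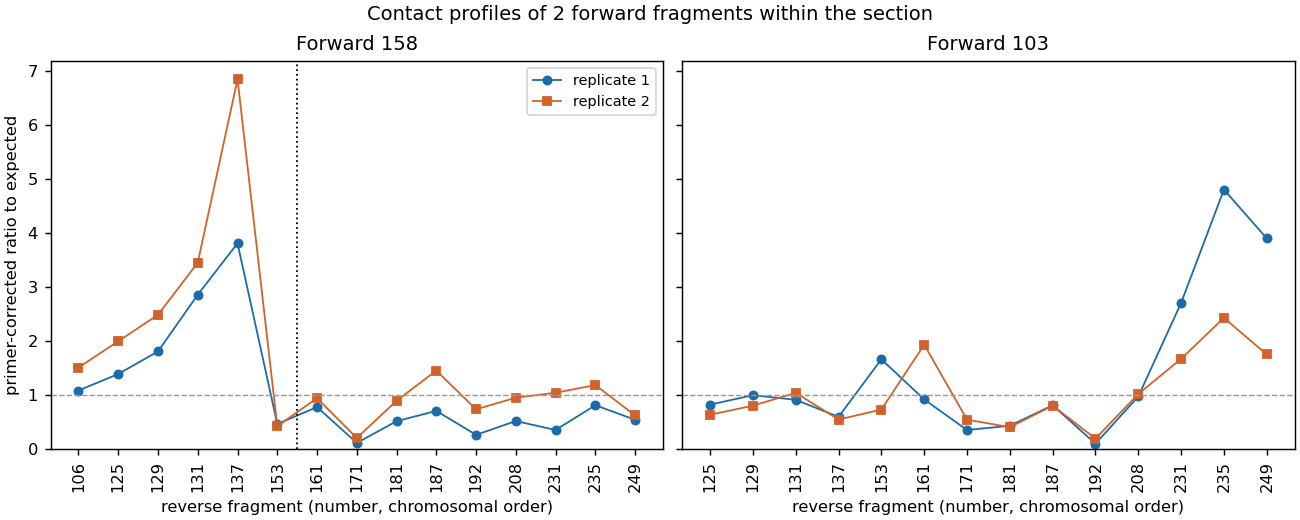
Corrected ratio of forward 158 (left) and forward 103 (right) with the reverse fragments of the section in chromosomal order, in replicate 1 (circles) and replicate 2 (squares); the dashed line marks 1 and the dotted line the position of forward 158. Forward 158 reaches 3.81 and 6.85 at reverse 137 and has 0.456 and 0.418 with reverse 153, and forward 103 is highest at reverse 235, with 4.81 and 2.43.

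Corrected ratios were high between the lower end of the section and its upper end, in replicate 1 above all. In counts, most of the pairs named here were under their expected count. Forward 103 (chr12:114747437-114750051), the first probed fragment of the section, had its highest corrected ratio in both replicates with a fragment near the far end. With reverse 235 (chr12:115225314-115233376), 480.6 kb away, it had 269 and 494 counts, a ratio of 2.59 and 1.56 and a corrected ratio of 4.81 and 2.43. With reverse 249 (chr12:115259493-115262224), 512.1 kb away, it had 93 and 106 counts and a corrected ratio of 3.90 and 1.75. The ratio before correction was 0.955 and 0.345. With reverse 231 (chr12:115209244-115211291), 461.5 kb away, it had 27 and 54 counts and a corrected ratio of 2.70 and 1.67. Here the ratio before correction was 0.247 and 0.167. The 95% exact Poisson interval of the count of 27 was 17.8 to 39.3.

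In each of these pairs of forward 103, replicate 1 was the higher in ratio and corrected ratio, and replicate 2 in counts. Their expected counts were lower in replicate 1. They were 103.7 and 316.7 with reverse 235, 97.4 and 307.5 with reverse 249, and 109.5 and 324.2 with reverse 231. As a share of all counts, the pair with reverse 235 was 1.51 times as high in replicate 2. The share was also higher in replicate 2 with reverse 231, and higher in replicate 1 with reverse 249. Reverse 106, the next probed fragment, had corrected ratios of 2.44 and 1.32 with forward 174 (chr12:115011448-115018809), 2.83 and 1.70 with forward 191 (chr12:115091955-115093814) and 3.31 and 1.08 with forward 241 (chr12:115242106-115243663). Its counts with these were 51 and 59, 74 and 82, and 46 and 48, all fewer than expected. With forward 233 (chr12:115211655-115215965) the corrected ratio of reverse 106 was 2.02 in replicate 1 and 0.503 in replicate 2. The replicates thus fell on opposite sides of 1. That pair had 78 and 58 counts, a ratio of 0.710 and 0.179. Over the 6 pairs of forward 103 and reverse 106 with the fragments from reverse 208 upwards the mean corrected ratio was 2.95 and 1.41, and 4 of them were above 1 in both. Before correction their mean ratio was 0.959 and 0.485. The share of all counts held by these 6 pairs was 1.25 times as high in replicate 2. The remaining 20 pairs between the lower and the upper sub-window, defined below, had a mean corrected ratio of 1.09 and 0.984. Of them, 5 had a corrected ratio above 1 in both. This grouping was also made after the values were seen.

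Among other pairs with high corrected ratios, some had like values in both replicates, and some rested on small counts or differed between replicates. Forward 191 with reverse 125, 276.2 kb apart, had 72 and 164 counts and a corrected ratio of 1.88 and 1.80, or 1.84 ± 0.0549 (SD, n = 2). Its counts were under the 306.6 and 516.9 expected, a ratio of 0.235 and 0.317. Forward 115 (chr12:114778143-114787052) with reverse 153, 137.4 kb apart and named after its values were seen, had 289 and 576 counts and a corrected ratio of 1.92 and 1.49. Forward 117 (chr12:114791568-114794187) with reverse 231 had a corrected ratio of 1.78 and 2.04 from only 2 and 19 counts. The 95% exact Poisson interval of the count of 2 was 0.242 to 7.22. Forward 117 had the lowest primer factor of the section's forward fragments, 0.0436 and 0.105, and its corrected ratios are the least certain. Forward 241 with reverse 208 (chr12:115148612-115152740), 92.2 kb apart, had 1003 and 3067 counts and a corrected ratio of 1.55 and 3.21. Forward 115 with reverse 231 had 3.81 in replicate 1 and 0.526 in replicate 2, from 133 and 50 counts.

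The lowest corrected ratios gathered on reverse 171 (chr12:114996747-115006242). Of the 5 lowest member pairs, it held 3. With forward 165 (chr12:114973711-114977500), 25.9 kb away, it had 653 and 1315 counts where 3463 and 6941 were expected, and a corrected ratio of 0.0929 and 0.129. With primer factors taken without called pairs this pair had 0.218 and 0.305. With forward 158, 62.5 kb away, it had 751 and 743 counts and 0.105 and 0.197. With forward 130 (chr12:114838820-114840677), 161.7 kb away, it had 46 and 104 counts and 0.0416 and 0.167. The other low pairs were forward 103 with reverse 192 (chr12:115093815-115096374), at 4 and 10 counts and 0.0903 and 0.185, and forward 233 with reverse 208, at 536 and 1351 counts and 0.190 and 0.272. Reverse 171 had high primer factors, 2.67 and 1.37. Before correction its mean ratio was 0.474 and 0.385, beside 0.405 and 0.407 over all member pairs, so it was low only after correction. Its mean corrected ratio was 0.358 and 0.533 inside the section and 1.07 and 1.05 outside it. Because the correction brings each fragment to about 1 over the locus, a fragment low inside the section must average above 1 outside it.

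Over all their member pairs, single fragments differed widely in counts and less after correction. In counts, reverse 137 had the highest mean ratio, 1.37 ± 0.131 (SD, n = 2), followed by forward 158 at 1.07 ± 0.104, reverse 235 at 0.830 ± 0.0863, forward 115 at 0.743 ± 0.227 and reverse 208 at 0.690 ± 0.0423. The lowest were forward 117 at 0.0536 ± 0.0357, reverse 161 (chr12:114950757-114952521) at 0.123 ± 0.0304 and reverse 153 at 0.124 ± 0.0635. After correction forward 158 had 1.35 ± 0.413, reverse 106 1.35 ± 0.361, reverse 137 1.25 ± 0.255, forward 103 1.23 ± 0.277 and reverse 231 1.19 ± 0.123. The order of these 5 is within their spread.

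The lowest corrected means were those of forward 165, 0.414 ± 0.0931, reverse 171, 0.446 ± 0.124, and forward 233, 0.615 ± 0.128. The value of forward 165 depended on 1 distant contact. Its pair with reverse 819 (chr12:117289594-117292548), 2315 kb away, had ratios of 122.0 and 203.8 and raised its primer factor. With the curve and primer factors fitted without called pairs, a choice made after the data were seen, forward 165 had 0.960 ± 0.108, near the middle of the 25 fragments. Reverse 171 stayed lowest at 0.477 ± 0.0626 and forward 233 next at 0.618 ± 0.102.

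**Figure D4:**
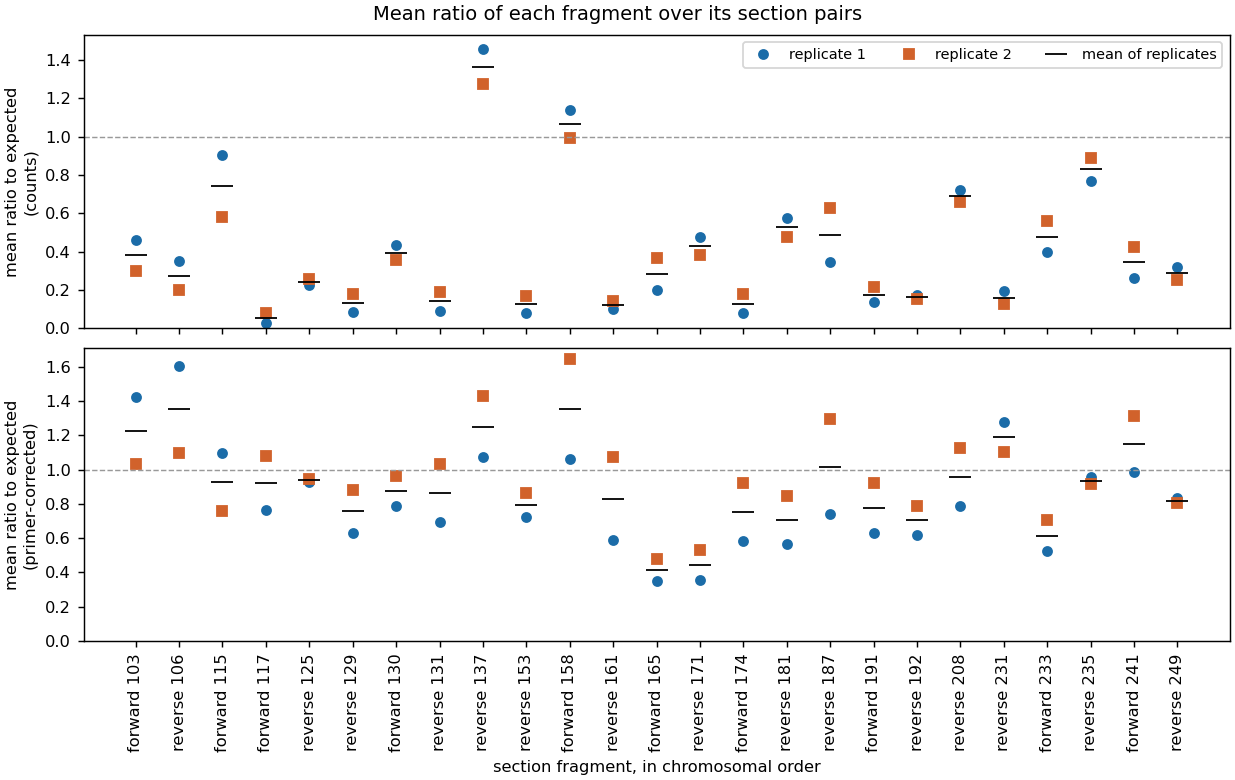
Mean ratio to the expected count of each of the 25 fragments over its section pairs, in counts (top) and after primer correction (bottom), for replicate 1 (circles), replicate 2 (squares) and their mean (bars), in chromosomal order. In counts the fragments range from 0.0536 (forward 117) to 1.37 (reverse 137); after correction they range from 0.414 (forward 165) to 1.35 (forward 158).

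The section was divided into 3 sub-windows of 185 kb, and corrected ratios within the lower and within the middle one were below those between the lower one and the others in both replicates. The lower sub-window, on the side of the D segments, has its probed fragments in chr12:114747437-114868474, the middle one in chr12:114919053-115096374 and the upper one in chr12:115148612-115262224. The mean corrected ratio was 0.667 ± 0.0121 (SD, n = 2) over the 17 pairs within the lower sub-window, 0.559 ± 0.233 over 23 pairs within the middle one and 0.795 ± 0.454 over 7 within the upper one. Between the lower and middle sub-windows it was 1.10 ± 0.186 over 44 pairs, and between the lower and upper ones 1.30 ± 0.310 over 26 pairs. Between the middle and upper ones it was 0.671 ± 0.279 over 28 pairs. Median distances were 55.0, 63.5 and 32.6 kb within the lower, middle and upper sub-windows. Between sub-windows they were 205.8 kb (lower with middle), 411.3 kb (lower with upper) and 212.0 kb (middle with upper). The nearest pairs of the section also had the lowest mean corrected ratio, so position and distance cannot be told apart in this contrast. Of the 23 pairs above 1 in both replicates, 12 joined the lower and middle sub-windows and 9 the lower and upper ones, 0 lay within the lower or within the middle sub-window, and 1 each was found within the upper and between the middle and upper ones. The value between the lower and middle sub-windows was 0.894 without forward 158. The upper sub-window was no such case, since its corrected mean of 1.12 in replicate 2 was above the 1.08 between the lower and upper ones. In counts the mean ratio was 0.245 ± 0.0443 within the lower sub-window, 0.243 ± 0.0391 within the middle one and 0.482 ± 0.2995 within the upper one, beside 0.480 ± 0.0171 between the lower and middle ones and 0.536 ± 0.145 between the lower and upper ones.

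Of these 6 combinations, pairs within the upper sub-window differed most between replicates. Its 7 member pairs held 3921 counts in replicate 1 and 25094 in replicate 2, a share of all counts 5.26 times as high in replicate 2. Forward 233 with reverse 235, 15.5 kb apart, had 962 and 9700 counts, a share 8.28 times as high. Forward 241 with reverse 235, 13.5 kb apart, had 784 and 6208, and forward 233 with reverse 249, 47.0 kb apart, had 436 and 3223. The mean ratio of the upper sub-window was 0.270 in replicate 1 and 0.694 in replicate 2, and the corrected one 0.474 and 1.12, so neither value stands for both libraries. These pairs were singled out after their values were seen. Of the 73 member pairs with 100 or more counts in replicate 1, a choice that uses replicate 1 alone, 8 had a share over 4 times as high in replicate 2, and the median was 1.53 times. Over all Igh pairs chosen in the same way the median was 0.907 times, and those over 4 times were not counted. Reverse 187 (chr12:115061883-115074065) in the middle sub-window took part in others of these 8 member pairs, with 111 and 978 counts for forward 174 and 494 and 2766 for forward 191.

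**Figure D5:**
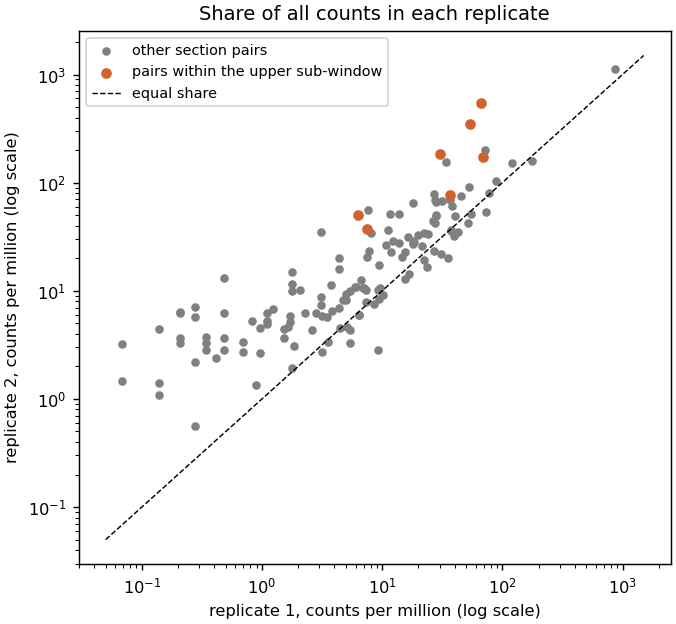
Share of all counts, on log scales and scaled to the same total, of each member pair detected in replicate 1, in replicate 1 (horizontal) and replicate 2 (vertical); coloured points are pairs within the upper sub-window and the dashed line marks equal shares. The 7 coloured points together have a share 5.26 times as high in replicate 2.

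Pairs of fragments under 10 kb apart were left out of the members but took most of the section's counts. There were 5 such pairs, and they held 75966 counts in replicate 1 (61.9% of the section's counts) and 191964 in replicate 2 (64.8%). Forward 191 with reverse 192 had 35796 and 62244, forward 130 with reverse 131 had 21328 and 62404, and forward 130 with reverse 129 had 14755 and 43098. These fragments share a HindIII site, so uncut or religated DNA cannot be told apart from a contact. Forward 103 with reverse 106, 4.76 kb apart, had 2374 and 4000. Forward 233 with reverse 231, 3.54 kb apart, had 1713 and 20218, the same direction between replicates as the rest of the upper sub-window.

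Set beside the next 3 windows of 555 kb towards the distal V genes, the section had the highest median corrected ratio in each replicate. Its median corrected ratio was 0.564 and 0.877 in replicates 1 and 2. The windows with probed fragments in chr12:115327864-115840223 (627 pairs), chr12:115848051-116386658 (121 pairs) and chr12:116433753-116952133 (114 pairs) had 0.398 and 0.482, 0.340 and 0.419, and 0.378 and 0.432. Its mean, 0.902 ± 0.115 (SD, n = 2), was above the 0.656 ± 0.0174 and 0.635 ± 0.176 of the first and the second of these windows and below the 1.07 ± 0.0543 of the last. The share of pairs above 1 in both replicates was 15.9% in the section and 2.23%, 8.26% and 11.4% in the other windows. With called pairs left out of the curve and primer factors, the corrected mean was 0.992 ± 0.0804 in the section, 0.748 ± 0.0569 and 0.756 ± 0.208 in the first and the second window and 2.08 ± 0.302 in the last, so the value of the last window depends on that choice. In counts the section's mean ratio of 0.406 was above the 0.320 ± 0.0106 of the first window and below the 0.610 ± 0.329 of the second and the 1.42 ± 0.399 of the last. With 1 group of 2 libraries these differences could not be tested, and nothing here is shown to be particular to the section.

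Fragments of the section also had called contacts outside it. Of the 2250 pairs that join a section fragment to the rest of the locus, 2 were called on counts in both replicates (0.0889%), against 0.24% of all Igh pairs, and both were called after correction too. Forward 115 with reverse 70 (chr12:114647312-114649351), 134.3 kb away on the D side, had 33278 and 40561 counts, and forward 165 with reverse 819 had 9550 and 18894. A further 5 were called only after correction, which makes 7 (0.311%), against 0.317% of all Igh pairs. Neither share was above that of the whole locus. They include reverse 181 (chr12:115048372-115052571) with forward 34 (chr12:114491123-114493851), 558.0 kb apart, at 3709 and 6277 counts, and reverse 208 with forward 16 (chr12:114399193-114400223), 751.0 kb apart, at 1308 and 858. The mean corrected ratio of section fragments was 1.15 and 0.895 with the 765 pairs below the section and 1.13 and 1.05 with the 640 pairs of the next window above it, beside 0.821 and 0.983 inside. By mean, both neighbouring stretches were above the section itself in replicate 1, and in replicate 2 only the upper one was. Medians were 0.879 and 0.706 below the section and 0.903 and 0.809 above it, beside 0.564 and 0.877 inside. By median neither stretch was above the section in replicate 2. Since the correction brings each fragment to about 1 over the locus, a mean under 1 inside the section goes with a mean above 1 over the rest.

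Contact across fragments of the section varied gently along it. The insulation score of a fragment is log2 of the mean corrected ratio over pairs with 1 end on either side of it, each end within 250 kb, and low values mean few contacts across it. Scores ran from 0.10 ± 0.14 (SD, n = 2) at reverse 153 to -0.59 ± 0.48 at reverse 192. Reverse 153 had -0.01 and 0.20, and lies between reverse 137 and forward 158, so the pair with the highest ratio of the section spans it. The minimum at reverse 192 was -0.93 in replicate 1 and -0.25 in replicate 2, a gap larger than the difference from its neighbours, forward 191 at -0.52 ± 0.44 and reverse 208 at -0.58 ± 0.32. Its mean score turned to 0.14 with ends within 500 kb, and without primer correction it was -1.47 and -1.09 and no minimum, beside -1.52 and -1.49 at reverse 208. A shallower minimum at reverse 125 had -0.39 and -0.43, beside -0.40 ± 0.02 at forward 117 and -0.37 ± 0.07 at reverse 129.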

How the data were processed

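The authors deposited, for each replicate, a table of raw counts: how many ligation products were sequenced for each forward and reverse primer pair. The submitters' processing notes name Novoalign and the build mm9, without versions. Per the file headers, my5C wrote the matrices after a step named transpurge, with mm9 positions. Each table has 206 Igh fragments. The section (chr12:114735001-115290000), its members and its 3 sub-windows of equal length were chosen with earlier results of these data known.

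Within each library, lowess (span 0.3) of counts against log10 midpoint distance over all 10415 Igh pairs 10 kb or more apart gave expected counts, and lowess of squared residuals gave their SD, each with a floor at 0.01% of its mean. This floor was not set beforehand: calls under floors of 0.01%, 1% and 5% had been seen, and 0.01% was kept since it came closest to the counts of an earlier analysis of these files. Standardised residuals, shifted above 0, were fitted with a Weibull distribution, and upper-tail p-values were adjusted by Benjamini-Hochberg over the whole table. For primer correction, ratios were divided over 50 rounds by the mean of their forward primer and then of their reverse primer. Log2 counts had a pseudocount of 1. Named by rule are the 10 highest and 5 lowest pairs by corrected ratio (by the lower and the higher replicate) and the 5 highest and 3 lowest fragments by mean ratio. Other items were chosen after their values were seen. Procedures were tested on simulated data. Software was Python 3.11.15 with NumPy 2.4.6, SciPy 1.17.1, statsmodels 0.14.6; figures used matplotlib 3.10.9.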

Additional observations from a re-analysis of the deposited data

How the results depend on the processing

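The count of 0 called member pairs held at lowess spans of 0.1 and 0.6, with no minimum distance and 20 kb, at q under 0.001 and 0.05, on the log2 scale, after primer correction, with curve floors at 1% and 5% and in each replicate alone. The count of members at p under 0.05 before adjustment in both replicates was 0 with floors at 0.01% and 1 at both 1% and 5%. After primer correction it was 0, 1 and 2. The mean ratio of the section, 0.406, was 0.472 at a span of 0.1, 0.363 at 0.6, 0.388 with no minimum distance, 0.415 at 20 kb, 0.355 without forward 158 with reverse 137 and 0.201 as a median. The corrected mean was 0.721 as a median and 0.992 with called pairs left out of the curve and primer factors. As medians of counts ratios, the lower, the middle, the lower with middle, the middle with upper and the lower with upper sub-windows gave 0.126, 0.176, 0.192, 0.193 and 0.359. Corrected medians were 0.627 within the lower sub-window and 0.896 between the lower and middle ones. Without forward 158 the last had 0.280 in counts and 0.894 corrected, and within the lower sub-window the corrected mean was 0.732 without called pairs in the fit. The insulation score of reverse 192 was 0.14 at 500 kb and -1.28 without primer correction, and it had under 10 pairs at 100 kb, so that setting gave no value. The cause of these shifts was not tested. Leaving out 1 replicate gave decay slopes of -1.08 to -0.85. No paired analysis was possible because the 2 libraries form 1 group.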
